A study of Mus musculus with 75 samples.

Results

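The RNAs described here are the small nuclear RNAs (snRNAs), small nucleolar RNAs (snoRNAs) and small Cajal body-specific RNAs (scaRNAs) that carried reads in mouse liver. Members were all genes that the deposited table classes as snoRNA, scaRNA or snRNA and that had at least 1000 counts summed over the 75 libraries. That rule kept 56 of the 2943 genes of these classes and of the 55536 genes in the table: 31 of 1507 snoRNA genes, 9 of 51 scaRNA genes and 16 of 1385 snRNA genes. Of the 2943 genes, 925 had 0 counts in every library, and the 56 members held 94.1% of all counts of the 3 classes. The members were chosen by their summed counts over all libraries, so their abundance is a description and not a result. The members just inside the threshold were Gm26316 with 1014 counts and Gm22748 and Snora21 with 1034 each, and the genes just outside it were Gm26165 with 953, Snora30 with 918 and Gm25047 with 857.

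Total RNA was sequenced from the livers of male wild-type C57Bl/6 mice whose mothers drank tributyltin (TBT), an organotin compound, or vehicle. The dams received 0.5 mg/kg of TBT daily (3.07 µM) until weaning, and the offspring were sampled at 3 weeks, 5 months or 10 months. At 3 weeks there were 8 libraries of 7 vehicle mice and 8 TBT libraries. At 5 months there were 8 vehicle libraries, 16 of low-risk TBT mice and 10 of high-risk TBT mice; what put a mouse in a risk group at this age is not in the labels. At 10 months there were 6 vehicle livers, 5 livers of low-risk TBT mice, 6 libraries of uninvolved (non-tumor) liver of high-risk TBT mice, 7 TBT tumors, and 1 tumor library of a vehicle mouse. Titles give 6 of the tumors and the uninvolved livers the same mouse numbers. Nothing in the labels says whether a library came from more than 1 animal, lobe or nodule, and p-values measure the spread between these samples.

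Libraries held 2.83 to 45.4 M counts (M, mega), and the 10-month libraries other than the vehicle tumor held 22.5 to 44.6 M. The 6 listed markers of hepatocytes, the main liver cell (Alb, Apoa1, Ttr, Cps1, Serpina1c and Tat) were detected in every group, at a summed 73037 to 112216 CPM (counts divided by the library total in M) in vehicle, uninvolved and tumor samples at 10 months. Uninvolved libraries 3 and 6 were the closest pair of the series, with a median chi-square per gene of 0.570 over 11435 genes (0.455 is the median for pure counting noise), and they were summed and counted as 1 sample. Yet 3 of the 56 members differed between them by at least 1.5-fold, and 1 of these, Gm23472, had 1 count in library 3 and 2055 in library 6. With both kept apart, the members that passed the test numbered 36 in place of 35 for tumors over uninvolved livers, 44 in place of 41 for uninvolved over vehicle livers and 43, as with the sum, for uninvolved over low-risk livers. The library labelled TBT 4 at 3 weeks had 348 CPM of Xist, the female X-inactivation transcript, and 7.08 CPM of 4 Y-linked genes, where the other 74 libraries had 0 to 84.6 and 93.9 to 299 CPM, so it goes against its male label. Besides the vehicle tumor, 5 libraries of 3 weeks or 5 months stood apart by a total below 5 M counts, by more than 35000 detected genes or by a mitochondrial share above 10%, and values without them are given beside the results. In the 5-month groups 1 vehicle, 10 low-risk and 7 high-risk libraries came from sequencing batch 2, and all other libraries came from batch 1.

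Spliceosomal snRNAs form the catalytic and recognition core of the spliceosome: U1 pairs with the start of an intron, U2 with its branch site, and U12 replaces U2 on the rare introns of the minor spliceosome. C/D box snoRNAs guide ribose methylation and H/ACA box snoRNAs guide pseudouridine formation, mostly on ribosomal RNA, while scaRNAs do the same on snRNAs in Cajal bodies. Most vertebrate snoRNAs are cut out of the introns of a host gene after splicing, whereas snRNA genes have promoters of their own, and all of these RNAs work inside protein complexes and lack a poly(A) tail, so that libraries of total RNA can hold them.

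By symbol, the members comprised 5 C/D box snoRNAs (Snord), 5 H/ACA box snoRNAs (Snora), 21 snoRNAs without a family name, 9 scaRNAs and 16 snRNAs. The 16 snRNAs held 44.3% of the member counts, the scaRNAs 26.2%, the unnamed snoRNAs 17.7%, the C/D box genes 9.13% and the H/ACA genes 2.60%. Gm25939, a near-identical relative of the U2 gene Rnu2-10, alone held 16.4%, and the 10 most abundant members (Gm25939, Snord17, Gm24265, Gm22442, Gm22009, Gm22513, Scarna2, Gm25291, Gm25395 and Gm24407) held 64.8%. Per kilobase of transcript, mean levels were highest for Gm25939 at 520.0 CPM per kb and Gm24265 at 322 CPM per kb. Of the 56 members, 37 lay within a host gene on the same strand, 35 of them in introns and 2 (Gm22486 and Gm24616) in exons.

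The following sequences belong to the members on which the results turn, from the GENCODE M21 transcripts on build GRCm38. Rnu12 lies at chr15:83149644-83149794 on the plus strand. Rnu1a1 lies at chr11:87422867-87423030 on the plus strand. Gm22614 lies at chr3:96488729-96488893 on the plus strand. Capitals in Rnu12 mark GTAAGGA, the stretch that pairs with the branch site of minor introns, and capitals in Rnu1a1 and Gm22614 mark ACTTACC, the stretch of U1 that pairs with the start of introns.

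Rnu12: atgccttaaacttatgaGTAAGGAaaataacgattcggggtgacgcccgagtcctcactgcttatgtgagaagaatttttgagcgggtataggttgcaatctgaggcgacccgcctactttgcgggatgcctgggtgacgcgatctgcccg
Rnu1a1: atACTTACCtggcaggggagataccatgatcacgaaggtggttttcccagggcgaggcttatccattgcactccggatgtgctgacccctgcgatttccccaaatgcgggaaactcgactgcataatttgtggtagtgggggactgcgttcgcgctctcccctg
Gm22614: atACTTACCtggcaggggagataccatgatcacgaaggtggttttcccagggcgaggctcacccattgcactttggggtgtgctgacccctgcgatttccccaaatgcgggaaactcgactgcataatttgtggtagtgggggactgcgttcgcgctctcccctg

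The next set shows H/ACA snoRNAs, some of them close relatives, with the ACA that sits 3 nucleotides from the 3′ end in capitals. Snora23 lies at chr7:110046364-110046547 on the plus strand. Gm25291 lies at chr11:51737779-51737922 on the minus strand. Gm24727 lies at chr8:33691801-33691944 on the plus strand. Gm25117 lies at chr10:111481493-111481636 on the plus strand. Snora78 lies at chr17:24719676-24719803 on the minus strand. Gm23442 lies at chr17:35162563-35162696 on the minus strand.

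Snora23: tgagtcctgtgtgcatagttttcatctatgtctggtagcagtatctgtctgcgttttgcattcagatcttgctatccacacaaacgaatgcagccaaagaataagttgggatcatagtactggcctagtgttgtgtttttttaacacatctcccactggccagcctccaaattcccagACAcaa
Gm25291: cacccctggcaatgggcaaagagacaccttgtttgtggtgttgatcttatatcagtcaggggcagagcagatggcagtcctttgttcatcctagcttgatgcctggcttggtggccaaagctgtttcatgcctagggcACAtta
Gm24727: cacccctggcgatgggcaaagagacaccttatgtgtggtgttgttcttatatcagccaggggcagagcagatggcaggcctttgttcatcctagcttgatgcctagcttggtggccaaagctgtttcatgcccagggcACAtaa
Gm25117: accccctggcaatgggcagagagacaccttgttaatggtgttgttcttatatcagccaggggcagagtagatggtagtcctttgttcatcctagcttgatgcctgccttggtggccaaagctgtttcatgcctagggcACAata
Snora78: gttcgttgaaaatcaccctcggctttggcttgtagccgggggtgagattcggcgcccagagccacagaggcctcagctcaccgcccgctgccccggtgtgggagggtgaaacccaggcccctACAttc
Gm23442: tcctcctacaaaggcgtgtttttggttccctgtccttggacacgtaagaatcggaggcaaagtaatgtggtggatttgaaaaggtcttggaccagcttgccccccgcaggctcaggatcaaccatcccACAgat

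Snord17, the most abundant snoRNA of the set, lies at chr2:144265979-144266216 on the minus strand and is shown with its C box (ATGATGA) and D box (CTGA) in capitals.

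Snord17: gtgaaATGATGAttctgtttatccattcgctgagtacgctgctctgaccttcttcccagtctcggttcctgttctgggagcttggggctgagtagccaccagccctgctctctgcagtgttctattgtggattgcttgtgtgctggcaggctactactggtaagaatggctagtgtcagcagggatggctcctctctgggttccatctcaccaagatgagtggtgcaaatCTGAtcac

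The ending ACANNN was present in 5 of 5 Snora members, 15 of 21 unnamed snoRNAs, 3 of 9 scaRNAs, 0 of 16 snRNAs and 0 of 5 Snord members. Over all genes of each class with a transcript sequence, 18.3% of 1507 snoRNAs, 49.0% of 51 scaRNAs and 0.940% of 1383 snRNAs had it. So most of the unnamed snoRNAs of the set have the end of an H/ACA RNA; the motif was read on the transcript strand at that position only.

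At 10 months the uninvolved livers of high-risk TBT mice differed from vehicle livers in 41 of the 56 members, all of which passed the filter on low counts; 22 were higher and 19 lower (edgeR quasi-likelihood test, Benjamini-Hochberg adjusted p under 0.05 over 16338 genes). The same test called 57.7% of all genes, so a large count is not particular to these RNAs. Levels did not overlap between the groups for 34 members, 30 of which were called, and for 32.7% of all genes. Outside the uninvolved libraries 9 members had fewer than 1000 counts, so that they reached the threshold only with these libraries. They were Gm22614, Gm24305, Gm24616, Gm25848, Gm24339, Gm22748, Snora21, Gm25099 and Gm26316. Those of the 9 that stood higher were chosen partly through the group in which they are high, so their differences are descriptions. Among the other 47, 17 were called higher and 18 lower. Higher members reached large changes: the U12 gene Rnu12, the H/ACA snoRNA Snora23 and the unnamed snoRNAs Gm24119, Gm24727 and Gm25848, the last 1 of the 9, each rose by over 2 on the log2 scale. Among lower members, Gm23442, Snora78 and Gm22154 fell by over 2 on that scale. The members' median log2 fold change was 0.29, beside 0.06 over all genes.

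Levels are given as CPM of each library's total, whereas fold changes are fitted with TMM factors (edgeR's trimmed-mean scaling), which were 1.04 to 1.29 in uninvolved and 0.871 to 0.949 in vehicle samples; a fitted fold is therefore lower than the ratio of CPM. With library totals alone, an alternative chosen after seeing the data, the median over all genes moved from 0.06 to 0.38, and 29 members were called higher and 16 lower. Fewer cells of a type and less RNA per cell cannot be told apart in such bulk samples. None of the 41 called members changed sign in any of the 20 alternatives.

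Among the snRNAs, 6 of 16 were higher and 5 lower, beside 31.2% and 26.5% of all genes. The 6 include Gm22614 and Gm24305, which reached the threshold only with the uninvolved libraries, so the class count is a description. Rnu12 stood at 0.717 to 0.985 CPM with a median of 0.808 in the 6 vehicle livers and at 12.9, 9.86, 10.4, 11.05 and 15.7 CPM in uninvolved samples 1, 3 and 6 summed, 5, 7 and 12. Even the lowest uninvolved sample was far above the highest vehicle (log2 fold change 3.55, SE 0.16, edgeR adjusted p = 1.99e-10). Tumors ranged from 0.681 to 1.59 CPM with a median of 1.29, and the low-risk livers had 0.711, 0.643, 0.642, 0.627 and 0.767 CPM in mice 2, 4, 8, 9 and 10, so that only the uninvolved samples stood high. The sum of Rnu12 and its 3 near-identical genes gave the same picture, with a log2 fold change of 3.54 over vehicles.

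Gm22614, which differs from Rnu1a1 by 6 nucleotides and is 99.4% identical to the named U1 gene Rnu1b2, was close to absent outside the uninvolved livers at 10 months. It had 18.8, 42.4, 15.7, 8.11 and 41.8 CPM in the uninvolved samples, in the same order, 0 counts in all 5 low-risk livers, and 11 counts in the vehicles, all in vehicle 1, at 0.401 CPM. In tumors it had 32 counts, all in tumor 12, at 1.24 CPM. Relative to the low-risk livers it was at least 1259.5-fold higher, taking 3 counts over that group as the limit that a count of 0 allows. The uninvolved libraries held 92.8% of its 7017 summed counts, and the 507 counts outside them are under the 1000 that made a gene a member. It was thus chosen through the group in which it is high, and its difference is a description without a test.

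The other higher snRNAs were the U1 copies Gm22068 and Gm24305, the U2 relative Gm25939, and Gm24265, 1 of a pair of genes on chromosome 5 that differ by 2 nucleotides. Gm22068 had 4.84 to 9.49 CPM with a median of 6.84 in vehicles and 23.2, 20.6, 28.7, 21.6 and 41.4 CPM in uninvolved samples, all above the vehicles (log2 fold change 1.64, SE 0.28, edgeR adjusted p = 0.000153). Gm24265 had 28.8 to 41.8 CPM with a median of 36.5 in vehicles against 75.7, 62.9, 77.9, 66.5 and 140.0 CPM, again without overlap (log2 fold change 0.94, SE 0.20, edgeR adjusted p = 0.000649). Its neighbour Gm24407 did not pass the test, with 17.4 to 29.2 CPM with a median of 22.5 in vehicles, 33.1, 32.3, 34.4, 31.0 and 66.6 CPM in uninvolved samples and a log2 ratio of 0.50 (edgeR adjusted p = 0.0615). Gm25939 had 73.9 to 98.0 CPM with a median of 83.01 in vehicles and 124, 194, 117, 107 and 196 CPM in uninvolved samples, the lowest of which was above the highest vehicle (log2 fold change 0.49, SE 0.17, edgeR adjusted p = 0.0223).

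Lower were 5 snRNAs: Rnu1a1, its identical copy Gm22317, the U1 copy Gm22513 and the U2 relatives Gm23971 and Gm26316. Rnu1a1, a U1 gene, had 4.41 to 8.13 CPM with a median of 6.69 in vehicles and 2.44, 2.42, 2.09, 1.93 and 3.97 CPM in uninvolved samples, all below the vehicles (log2 fold change -1.63, SE 0.21, edgeR adjusted p = 7.53e-06). Gm22513, the most abundant U1 gene here, had 33.4 to 52.4 CPM with a median of 43.0 against 29.0, 26.1, 26.8, 26.3 and 43.1 CPM, with sample 12 inside the vehicle range (log2 fold change -0.81, SE 0.15, edgeR adjusted p = 0.000251). Gm23971, identical to Rnu2-10, and Gm26316 had log2 fold changes of -0.98 and -1.96. Not called were Gm24407, the U2 relatives Gm22973 (0.19), Gm25360 (-0.23) and Gm23472 (3.85, SE 1.94), and Gm25099, a relative of the U5 gene Rnu5g (0.57).

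Of the 5 C/D box snoRNAs, Snord17 and Snord118 were higher and Snord15a was lower. Snord17 had 32.7 to 52.1 CPM with a median of 39.4 in vehicles and 75.3, 81.5, 83.8, 81.4 and 129.8 CPM in uninvolved samples, without overlap (log2 fold change 0.84, SE 0.17, edgeR adjusted p = 0.000422). Snord118, the U8 RNA needed for large-subunit ribosomal RNA processing, had a value of 1.16 on the log2 scale (edgeR adjusted p = 0.00265), and Snord15a one of -0.59 (edgeR adjusted p = 0.00965). Snord104 (0.28) and Snord13 (0.03), the U13 RNA, did not pass the test.

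The 5 H/ACA box genes split: Snora23 was higher, Snora78 lower, and Snora20, Snora21 and Snora57 were not called, with log2 fold changes of 0.06, -0.68 and 0.73. Snora23 had 1.76 to 3.29 CPM with a median of 2.11 in vehicles and 18.3, 22.3, 24.5, 20.1 and 40.5 CPM in uninvolved samples. Again the lowest uninvolved sample was far above the highest vehicle (log2 fold change 3.17, SE 0.23, edgeR adjusted p = 2.54e-08). Snora78 moved the other way, from 7.17 to 9.52 CPM with a median of 7.997 in vehicles to 1.86, 2.15, 1.95, 1.496 and 2.49 CPM, all below the lowest vehicle (log2 fold change -2.33, SE 0.16, edgeR adjusted p = 9.57e-09). Both lie opposite another gene, Snora23 opposite 1600010M07Rik and Snora78 opposite Rps2, as Snora57 lies opposite Lbhd1. The strand setting of the counting is not given in the sources used here, so reads from the 2 strands may have been counted together at these 3 genes.

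Among the 21 unnamed snoRNAs, 9 were higher and 9 lower, beside 31.2% and 26.5% of all genes. The higher ones include Gm25848, Gm24616 and Gm24339, which reached the threshold only with the uninvolved libraries. Gm24119, chosen for description after its values were seen since it fell short of the mean of 5 CPM set for naming in this comparison, had 0.394 to 0.764 CPM with a median of 0.497 in vehicles and 7.40, 8.79, 9.25, 8.72 and 15.8 CPM in uninvolved samples (log2 fold change 3.93, SE 0.28, edgeR adjusted p = 1.64e-08). Gm25291, the most abundant of them, had 18.6 to 21.9 CPM with a median of 19.9 against 78.4, 63.6, 94.9, 84.4 and 118 CPM; no uninvolved sample came near the vehicle range (log2 fold change 1.81, SE 0.14, edgeR adjusted p = 2.62e-08). Gm24727, 9 nucleotides different from Gm25291, had 1.26 to 1.79 CPM with a median of 1.41 against 8.59, 9.42, 8.97, 7.85 and 11.3 CPM (log2 fold change 2.32, SE 0.17, edgeR adjusted p = 2.24e-08). The groups were apart for all 3 genes.

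Gm25776 had 2.06 to 3.29 CPM with a median of 2.30 in vehicles and 8.19, 9.74, 9.45, 9.004 and 15.9 CPM in uninvolved samples (log2 fold change 1.75, SE 0.21, edgeR adjusted p = 4.06e-06), and Gm26397 had 3.53 to 5.07 CPM with a median of 4.23 and 14.1, 12.1, 18.2, 16.5 and 21.8 CPM (log2 fold change 1.65, SE 0.17, edgeR adjusted p = 8.1e-07). For both, every uninvolved sample was above every vehicle. Gm25848, 89.6% identical to Gm25776, moved likewise at a lower level, with a log2 fold change of 2.09. The remaining higher ones were Gm24616 (1.92), which lies in an exon of Eif4a2, Gm24339 (0.98) and Gm26448 (0.50), a relative of Snora73b.

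On the lower side, Gm23442 and Gm22154 were also chosen after their values were seen. Gm23442 fell from 2.01 to 3.26 CPM with a median of 2.75 in vehicles to 0.561, 0.407, 0.499, 0.374 and 0.521 CPM in uninvolved samples (log2 fold change -2.81, SE 0.21, edgeR adjusted p = 2.24e-08), and Gm22154 from 5.11 to 6.97 CPM with a median of 5.91 to 1.52, 1.57, 1.45, 1.47 and 2.11 CPM (log2 fold change -2.19, SE 0.15, edgeR adjusted p = 1.01e-08), both without overlap. Gm22486, which lies in an exon of Ptcd3, had 9.82 to 12.2 CPM with a median of 11.1 and 4.33, 3.79, 4.76, 4.66 and 6.49 CPM (log2 fold change -1.52, SE 0.15, edgeR adjusted p = 4.44e-07). Gm25117 had 7.99 to 8.91 CPM with a median of 8.39 against 6.46, 4.95, 5.13, 5.21 and 7.84 CPM, a smaller fall (log2 fold change -0.83, SE 0.13, edgeR adjusted p = 5.83e-05). Gm22486 and Gm25117 were each apart from the vehicles too. Also lower were Gm25394 (-1.78), Gm23639 (-1.08), Gm25835 (-0.98), Gm24233 (-0.58) and Gm24336 (-0.51), while Gm25788 (-0.38), Gm22422 (0.01) and Gm22748 (-0.53) were not called.

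Of the 9 scaRNAs, 4 were higher and 3 lower, beside 31.2% and 26.5% of all genes. Gm22009, an unnamed scaRNA of 343 nucleotides, had 21.8 to 28.2 CPM with a median of 24.6 in vehicles and 70.4, 55.4, 60.2, 62.0 and 73.9 CPM in uninvolved samples, all above the highest vehicle (log2 fold change 1.05, SE 0.10, edgeR adjusted p = 4.89e-07). Gm23119 (1.26), Scarna17 (1.14) and Gm25395 (0.59, edgeR adjusted p = 0.0422) were higher too. Lower were Gm25492 (-1.37), Scarna6 (-0.72) and Gm22442 (-0.71), the last with 39.2 to 48.8 CPM with a median of 42.3 in vehicles and 28.4, 30.8, 30.7, 29.8 and 43.1 CPM in uninvolved samples, where sample 12 lay inside the vehicle range. Scarna2 (0.39) and Scarna13 (0.29) did not pass the test, although they were called with library totals alone.

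**Figure D1:**
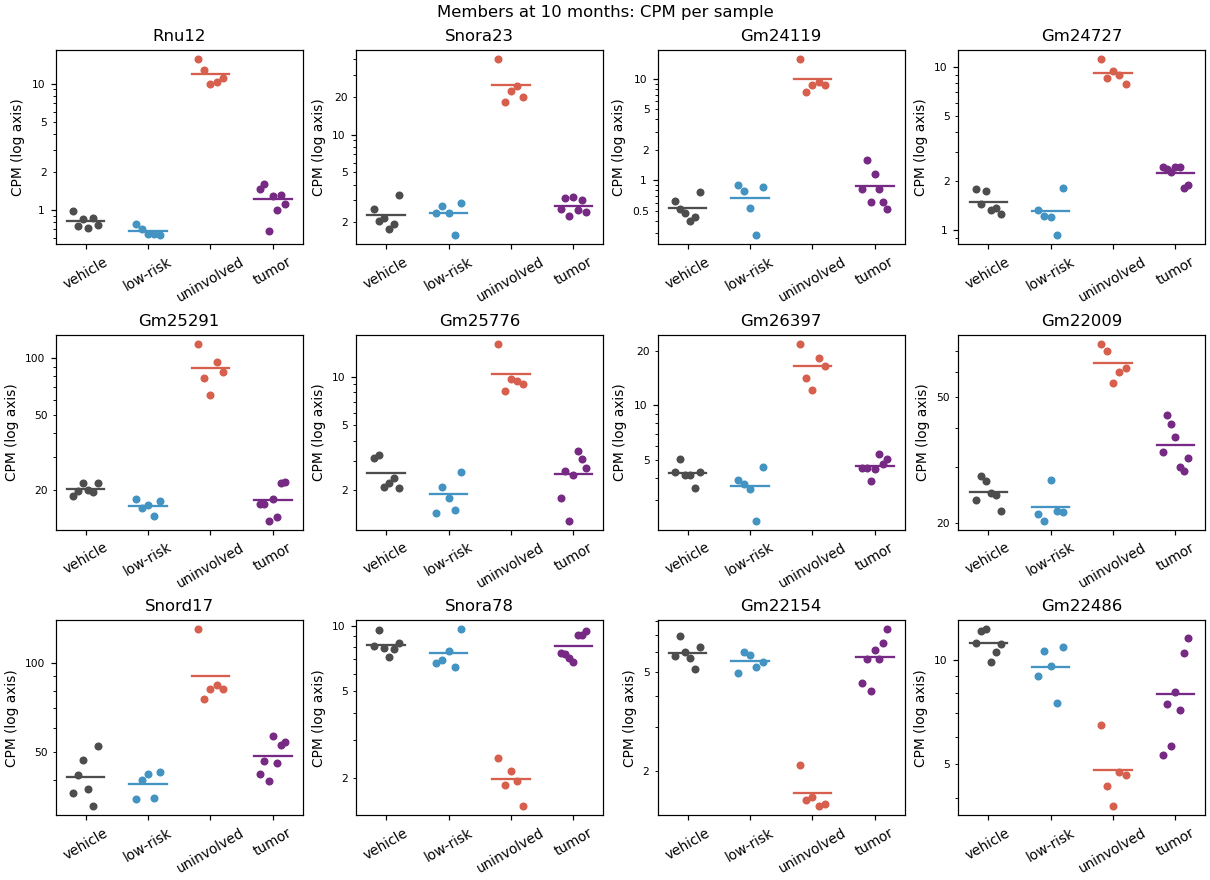
CPM of 12 members in each 10-month sample on logarithmic axes, with 1 panel per gene, 1 point per sample and a line at each group mean, for vehicle, low-risk, uninvolved and tumor samples. Rnu12 and Snora23 stand high in the 5 uninvolved samples alone, and Snora78 stands low there.

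Low-risk TBT livers of the same age allow the uninvolved livers to be set against mice with the same maternal exposure. Here 43 of 56 members were called, 28 higher and 15 lower in uninvolved samples, beside 52.4% of all genes. Levels of 35 members did not overlap, beside 29.9% of all genes. Among the 47 members with at least 1000 counts outside the uninvolved libraries, 22 were higher and 14 lower. The comparison shares its uninvolved samples with the one against vehicles, so the values are given side by side. Rnu12 was higher by 3.90 on the log2 scale (edgeR adjusted p = 1.93e-10), Gm24119 by 3.67, Snora23 by 3.19, Gm24727 by 2.59 and Gm25291 by 2.18. Gm22486 was lower, with a log2 fold change of -1.22 and 10.6, 9.57, 7.49, 10.9 and 8.999 CPM in low-risk mice 2, 4, 8, 9 and 10. Low-risk values of Snora23, at 2.68, 2.38, 1.57, 2.87 and 2.37 CPM in these mice, lay near the vehicle values. So did those of Snora78, at 6.98, 7.68, 6.46, 9.62 and 6.73 CPM. Gm25291 had 16.1, 16.7, 14.5, 17.5 and 17.9 CPM in them, all somewhat below the lowest vehicle. By class, 9 of 16 snRNAs, 6 of 9 scaRNAs, 9 of 21 unnamed snoRNAs, 2 of 5 H/ACA and 2 of 5 C/D members were higher. Over all genes 27.7% were higher and 24.7% lower. The class counts include members that reached the threshold only with the uninvolved libraries.

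Between low-risk TBT and vehicle livers at 10 months no member was called (0 of 56 with edgeR and 0 with DESeq2). Of all genes edgeR called 0% and DESeq2 1 gene. At an unadjusted p under 0.05, 10 members passed with edgeR. The members' median log2 fold change was -0.26 against 0.01 over all genes. Levels did not overlap for 1 member, Gm25291, which was lower in low-risk livers, beside 1.08% of all genes.

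Tumors were lower than the uninvolved livers in 23 members and higher in 12, together 35 of the 55 tested, where 18.1% of all genes were called; 27 members did not overlap, beside 6.36% of all genes, and all 27 were called. Among the members with at least 1000 counts outside the uninvolved libraries, 46 were tested, 19 were lower and 11 higher. Gm23472 was not tested because it did not pass the filter on low counts. The members' median log2 fold change was -0.43, beside -0.01 over all genes. By class, 6 of 15 snRNAs, 5 of 9 scaRNAs, 3 of 5 C/D box, 2 of 5 H/ACA and 7 of 21 unnamed snoRNAs were lower in tumors. Higher were 4 snRNAs, 1 scaRNA, 1 H/ACA and 6 unnamed snoRNAs. Over all genes 10.5% were lower and 7.55% higher. These class counts, too, include members that reached the threshold only with the uninvolved libraries. Library totals alone gave 13 higher and 22 lower.

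Rnu12 differed between tumors and uninvolved livers by -3.33 in log2 terms (SE 0.20, edgeR adjusted p = 1.54e-06), the 7 tumors reaching at most 1.59 CPM. Snora23 ranged from 2.26 to 3.15 CPM with a median of 2.55 in tumors (log2 fold change -3.26, SE 0.21, edgeR adjusted p = 1.54e-06), and Gm25291 from 13.8 to 22.1 CPM with a median of 16.96 (log2 fold change -2.34, SE 0.18, edgeR adjusted p = 7.39e-06). None of these tumors came near the uninvolved range. Gm24727 (-2.07), Gm25776 (-2.10), Gm26397 (-1.86), Gm22068 (-1.53) and Gm24119 (-3.56) were lower as well, without overlap. The other lower members were Gm22614, Gm25848 (-2.26), Gm24616 (-1.65), Gm24305 (-1.41), Gm23119 (-1.15), Snord118 (-1.01), Scarna17 (-0.997), Snord104 (-0.96), Gm25395 (-0.88), Snora57 (-0.82) and Scarna13 (-0.49). Among other abundant members, Snord17 ranged from 39.8 to 56.6 CPM with a median of 46.5 in tumors (-0.94), Gm24265 from 34.3 to 60.9 CPM with a median of 46.6 (-0.93), Gm22009 from 29.2 to 43.8 CPM with a median of 33.6 (-0.89) and Gm25939 from 68.3 to 129 CPM with a median of 78.4 (-0.80). Gm25939 and Gm24407 ranges overlapped between tumors and uninvolved livers.

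Higher in tumors were Snora78, at 6.80 to 9.48 CPM with a median of 7.49 (log2 fold change 1.995, SE 0.18, edgeR adjusted p = 3.09e-05), Rnu1a1, at 4.66 to 8.98 CPM with a median of 6.70 (log2 fold change 1.42, SE 0.23, edgeR adjusted p = 0.0024), and Gm25117, at 9.56 to 12.7 CPM with a median of 12.4 (log2 fold change 0.94, SE 0.16, edgeR adjusted p = 0.00307). All 7 tumors were above all 5 uninvolved samples for each. Gm23442 (2.65), Gm26316 (2.15), Gm22154 (1.80), Gm22317 (1.76) Gm25394 (1.37), Gm23639 (1.17), Gm25492 (0.98) and Gm25835 (0.75) rose too, and Gm22513 rose by 0.51 (edgeR adjusted p = 0.0472). Gm22486, at 5.33 to 11.5 CPM with a median of 7.47 in tumors, did not pass the test (0.71, edgeR adjusted p = 0.0521). With mouse number as a block, Gm22486 (log2 fold change 0.82 ± 0.20 SE, edgeR adjusted p = 0.0333) and Scarna6 (0.60 ± 0.12 SE, edgeR adjusted p = 0.0206) were called higher. In that fit Scarna13 (-0.45 ± 0.15 SE, edgeR adjusted p = 0.0754) and Snora57 (-0.68 ± 0.28 SE, edgeR adjusted p = 0.137) were not called.

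Against vehicle livers, tumors showed few calls: 8 of 54 members, 1 higher and 7 lower, where 45.9% of all genes were called, so the share of members lay below the background. The median log2 fold change was -0.07, beside -0.01 over all genes, and 5 members did not overlap, beside 23.8% of all genes. Gm22442 had 23.7 to 37.5 CPM with a median of 29.2 in tumors against 39.2 to 48.8 CPM with a median of 42.3 in vehicles, without overlap (log2 fold change -0.82, SE 0.12, edgeR adjusted p = 0.000121). Scarna2, a scaRNA of 414 nucleotides, was the 1 higher member, with 31.8 to 44.5 CPM with a median of 37.9 against 22.001 to 27.7 CPM with a median of 24.9 (log2 fold change 0.30, SE 0.086, edgeR adjusted p = 0.00966). The other lower members were Gm24233 (-0.97), Gm22486 (-0.78), Snord104 (-0.63), Gm24336 (-0.58), Gm25291 (-0.49) and Snora78 (-0.30). Rnu12 (0.26, edgeR adjusted p = 0.307), Snora23 (-0.05, edgeR adjusted p = 0.807) and Gm24727 (0.29, edgeR adjusted p = 0.124) did not pass the test.

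This comparison depended on the scaling and on single samples. Scarna2 was not called in all 21 alternatives, and of the 7 lower members only 1 was. With library totals in place of TMM factors the median over all genes moved from -0.01 to 0.29 and 16 members were called, 12 of them higher. Under that scaling Rnu12 (0.56), Gm24727 (0.59) and Gm24119 (0.71) were called higher, and Gm25291 (-0.20) and Snora78 (-0.01) were no longer called. Without tumor 7 the count was 13, and with the vehicle tumor library counted as a vehicle it was 2.

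**Figure D2:**
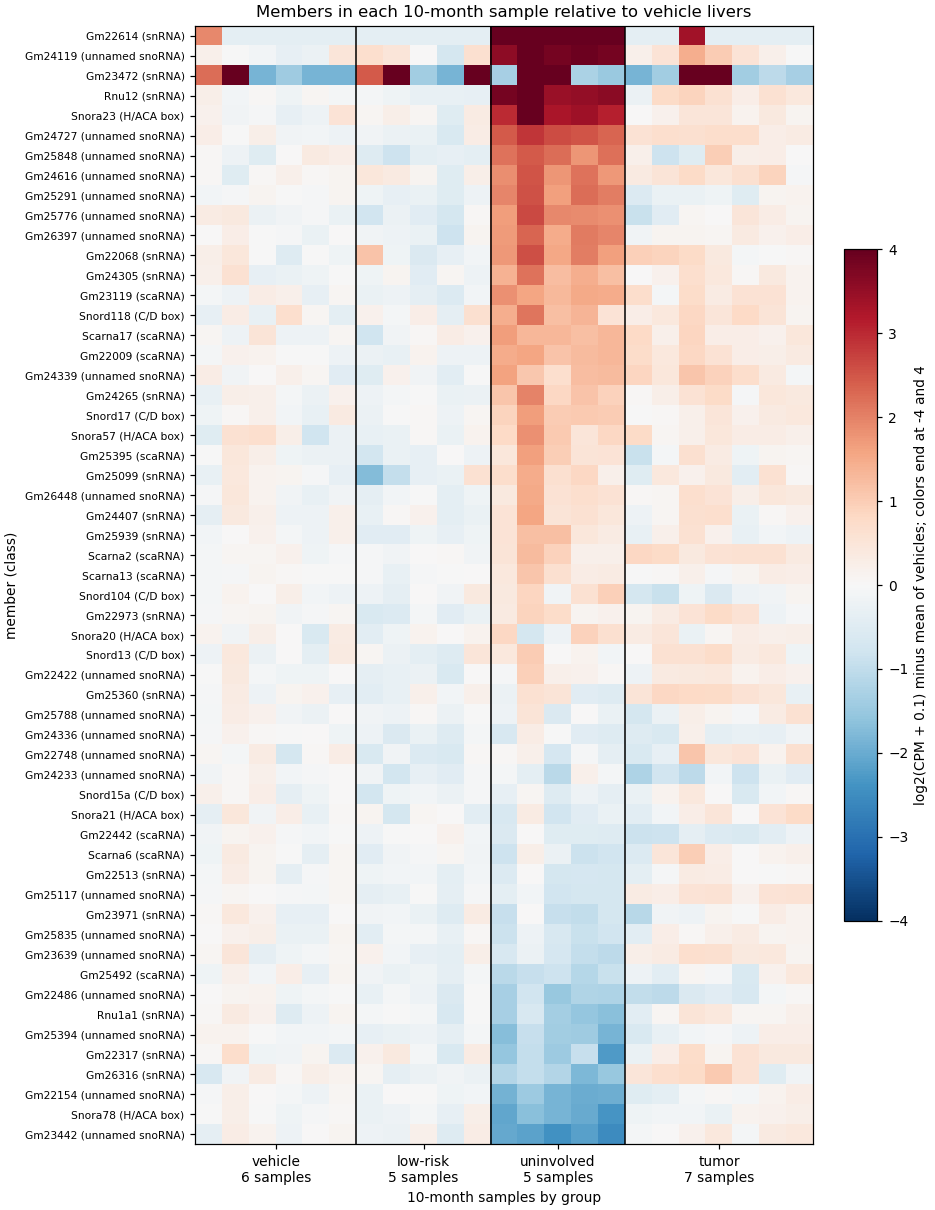
Heat map of all 56 members (rows, ordered from the most raised to the most lowered in uninvolved livers) in the 23 samples of 10 months (columns, by group), as log2(CPM + 0.1) minus the mean of the vehicles, with colors that end at 4 in either direction. The uninvolved columns hold most of the strong colors, while the tumor and low-risk columns stay near the vehicle mean for most members. The row of Gm23472 is strong in single samples of every group.

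Some members that are almost the same in sequence moved together and others apart. Rnu1a1, Gm22068 and Gm22317 have identical transcripts of 164 nucleotides at different loci, the first pair in introns of Tex14 on chromosome 11 and the last on chromosome 12. Uninvolved over vehicle log2 fold changes were -1.63, 1.64 and -1.80. Gm22513 and Gm24305, each 1 nucleotide away from them, had -0.81 and 1.36. Thus Rnu1a1, Gm22317 and Gm22513 were called lower, and Gm22068 and Gm24305 higher. Among the U2 copies Gm23971 (-0.98) and Gm26316 (-1.96), 1 nucleotide apart, were both lower. How reads that fit several copies were assigned is not given in the sources used here, so a value of 1 copy is uncertain and the sum over copies is the firmer measure.

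Summed over the 26 U1 genes of the table that are near-identical (at least 95% identity over at least 90% of the length), U1 had 46.5 to 76.0 CPM in vehicles, 44.5 to 62.4 in low-risk livers, 60.5 to 135 in uninvolved livers and 53.3 to 81.1 in tumors. Uninvolved and vehicle ranges overlapped and the sum was not called (log2 fold change 0.26, SE 0.19, edgeR adjusted p = 0.232), nor was it between tumors and uninvolved livers (-0.48, edgeR adjusted p = 0.0845). Against low-risk livers it was higher by 0.48 (edgeR adjusted p = 0.0451). The 13 U2 genes summed to 109 to 143 CPM in vehicles and 138 to 381 CPM in uninvolved livers, and were not called between these groups (0.50, edgeR adjusted p = 0.106). Over low-risk livers, at 94.9 to 158 CPM, the U2 sum was higher by 0.72 (edgeR adjusted p = 0.0331), although these ranges overlapped. The U2 sum includes Gm23472, which was high in single libraries only, as described below. At 5 months the fit gave a lower U2 sum in high-risk than in low-risk livers (-0.65, edgeR adjusted p = 0.027). The levels overlapped there and the medians did not differ that way. High-risk livers had 36.5 to 165 CPM with a median of 127, and low-risk livers 84.5 to 486 CPM with a median of 122. The pair Gm24265 and Gm24407 was higher in uninvolved livers as a sum, at 95.1 to 207 CPM against 46.3 to 71.0 CPM in vehicles (0.79, SE 0.20, edgeR adjusted p = 0.00342), and lower in tumors (edgeR adjusted p = 0.0219).

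**Figure D3:**
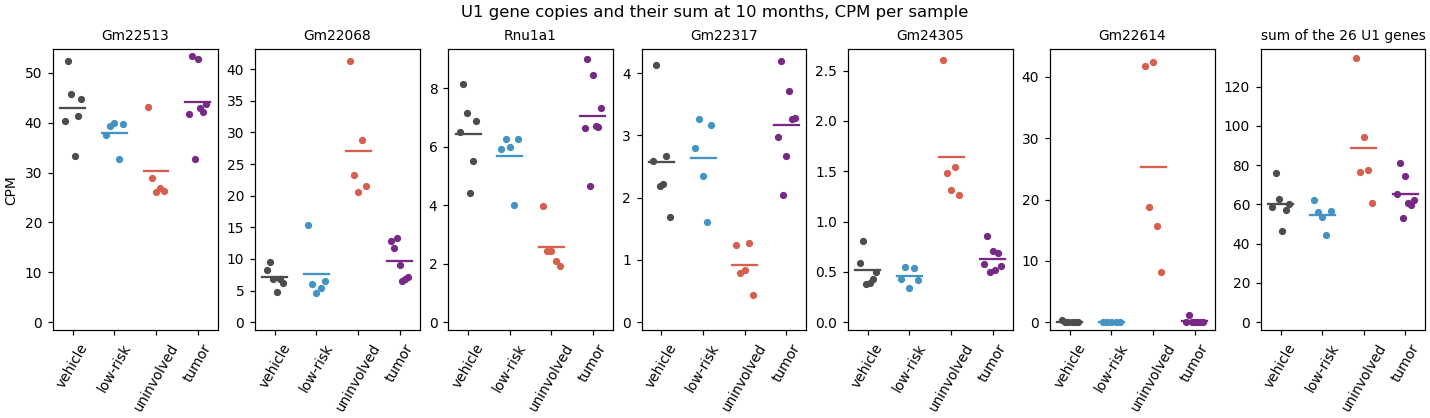
CPM of the 6 U1 genes among the members and of the sum over all 26 U1 genes in each 10-month sample, on linear axes with 1 panel per gene and 1 point per sample. Rnu1a1 and Gm22317 are low and Gm22068 and Gm22614 high in uninvolved livers, while the sum overlaps between groups.

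Gm23472, 1 nucleotide different from Gm23971, was either almost absent or abundant in single libraries of every 10-month group. Vehicles 1 and 2 had 1.61 and 9.59 CPM and the other 4 at most 0.036. Low-risk mice 10, 2 and 9 had 1.87, 16.02 and 39.9 CPM, and mice 4 and 8 at most 0.038. Uninvolved libraries 12 and 6 had 132 and 55.2 CPM and libraries 1, 3, 5 and 7 at most 0.050, while tumors 12 and 3 had 30.8 and 10.7 CPM and the other 5 at most 0.077. In mouse 12 both the tumor and the uninvolved liver were thus high, whereas mouse 3 was high in the tumor library and mouse 6 in the uninvolved library.

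The H/ACA relatives whose sequences are printed here also went different ways at lower identity. Gm25291 and Gm24727, both higher in uninvolved livers, are 93.8% identical, and Gm25117, 92.4% identical to Gm25291, was lower. Gm22154 and Gm25788 lie in introns of the same host, Pabpc4, and differ by 4 nucleotides: Gm22154 was lower (-2.19) and Gm25788, at 3.42 to 5.04 CPM with a median of 3.98 in vehicles and 3.50, 2.70, 4.16, 3.34 and 5.84 CPM in uninvolved samples, was not called (-0.38, edgeR adjusted p = 0.0878).

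Since an intronic snoRNA shares its primary transcript with its host, the 34 members with a tested host gene were set beside their 31 hosts. Hosts were assigned by position and strand alone. The 34 therefore also hold snRNAs, whose genes have promoters of their own and for which a shared transcript is not implied. In uninvolved over vehicle livers 27 of these members were called; for 17 of them the host was called too, 9 in the same and 8 in the opposite direction, for 10 the host was not called, and for 5 further members only the host was. Over all genes 57.7% were called in this comparison. Host log2 fold changes ran from -0.85 to 0.86, while those of members ran from -2.81 to 3.93. Across the 34 members Spearman's rho between the member's and the host's change was -0.14 and Pearson's r -0.09; the points share libraries and some hosts, and genes are not independent replicates.

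Where member and host were both called, 9 pairs moved the same way and 8 the opposite way. The examples named here are hosts that changed the opposite way to their member or hardly moved. Ipo7 encodes a nuclear import receptor, and its mRNA fell by 0.85 on the log2 scale while Snora23 in its intron rose by 3.17. Slc25a3, the mitochondrial phosphate carrier, fell by 0.55 and its Gm24119 rose by 3.93. Prrc2a rose by 0.58 and its Gm23442 fell by 2.81. Hosts of other changed members hardly moved, such as Sec24a at 0.09 with Gm25291, Gsr, the glutathione reductase gene, at -0.07 with Gm24727, and Kpna4, an importin, at -0.14 with Gm22009. Atg16l1, an autophagy gene, carries Scarna6 and Gm25395, which moved apart (-0.72 and 0.59) at a host change of -0.29.

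In tumors over uninvolved livers, 22 of 35 members with a tested host were called, with the host called for 7 of these, 2 in the same and 5 in the opposite direction. Against vehicles, 5 of 32 members with a host were called in tumors, with the host called for 3 of them, each in the same direction. For 13 further members only the host was called. Over all genes 18.1% were called between tumors and uninvolved livers and 45.9% between tumors and vehicles.

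**Figure D4:**
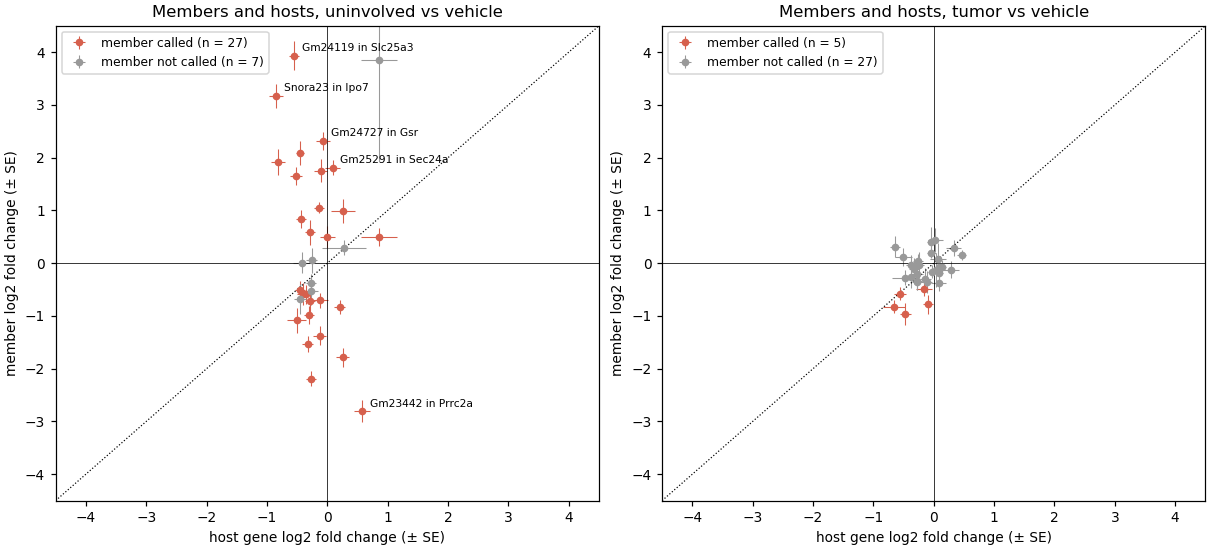
Log2 fold change of each member (vertical axis) against that of its host gene (horizontal axis), with 1 SE either way, for uninvolved over vehicle livers (left) and tumors over vehicle livers (right). Points spread far along the vertical axis on the left, from -2.81 to 3.93, over a host range of -0.85 to 0.86.

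Genes for the proteins that bind, make or use these RNAs had log2 fold changes between -1.11 (Polr3g) and 1.28 (Gar1) where called in uninvolved over vehicle livers. These lists were chosen with earlier results of the data known. Of 20 genes of snoRNA-protein complexes, 1 was higher and 5 lower in that comparison, in which 31.2% of all genes were higher and 26.5% lower, with a median log2 fold change of 0.07 (0.06 over all genes). Gar1, an H/ACA core protein, rose by 1.28 (edgeR adjusted p = 2.08e-05), while Nop10 (-0.79) and Dkc1 (-0.37), the pseudouridine synthase of the same complex, fell. Among 36 spliceosomal snRNP genes 2 were higher and 9 lower (median -0.03): Snrnp70, the U1 70K protein, rose by 0.55 and Prpf3 by 0.83, and the Sm proteins Snrpe (-0.95), Snrpg (-0.60) and Snrpb (-0.57) fell. Of 14 minor spliceosome genes 3 were higher and 1 lower (median 0.07), with Zrsr2 at 0.68, Snrnp35 at 0.53, Zcrb1 at 0.30 and Pdcd7 at -0.65.

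Cajal body and snRNP assembly genes, which load Sm proteins on snRNAs, had 7 of 13 tested lower and 3 higher, beside the 26.5% and 31.2% of all genes, with a median log2 fold change of -0.46. Strap (-0.79), Gemin6 (-0.75), Gemin2 (-0.59), Clns1a (-0.57) and the scaRNA-binding Wrap53 (-0.46) fell, and Smn1 (0.63) and Gemin8 (0.91) rose. For snRNA transcription and end processing 5 of 29 were higher and 7 lower (median -0.15), for the nuclear exosome 1 of 18 and 6 (-0.08), for RNA polymerase III 4 of 21 and 8 (-0.05), and for ribosome synthesis partners 6 of 26 and 7 (-0.06). Examples were Snapc3, of the snRNA promoter complex (0.79), the exosome cofactor C1d (-0.89), Polr3g (-1.11) and nucleolin, Ncl (0.99). Among 6 tested genes of other structured RNAs only Rn7sk, the 7SK RNA that holds back transcription elongation, was called, with a rise of 0.81.

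Tumors over uninvolved livers called 7.55% of all genes higher and 10.5% lower. In the same lists 2 of 20 snoRNP genes were higher and 1 lower, 4 and 2 of 36 spliceosomal, 0 and 3 of 14 minor spliceosome, 4 and 1 of 13 assembly, 0 and 3 of 29 transcription, 3 and 3 of 18 exosome, 2 and 3 of 21 polymerase III and 0 and 3 of 26 ribosome partner genes, and 0 and 1 of 6 structured RNAs. Gar1 (-0.57), Ncl (-1.02), Snrnp70 (-0.84), Smn1 (-0.58) and Rn7sk (-1.07) were lower in tumors, and Snrpe (0.86) and Gemin6 (0.75) higher.

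Summed over the 56 members, vehicle livers had 532 to 686 CPM, low-risk livers 500.4 to 603, uninvolved livers 834 to 1578 and tumors 534 to 810 CPM. Means were 601 ± 61.5 in vehicles (SD, n = 6), 1039 ± 308 in uninvolved livers (SD, n = 5) and 657 ± 91.0 in tumors (SD, n = 7). Uninvolved 12 was the highest sample at 1578 CPM, and the other 4 had at most 1007 CPM. All uninvolved samples were above all others of their age in CPM of library totals. TMM factors were not applied to these sums, and they were 1.04 to 1.29 in uninvolved against 0.871 to 0.949 in vehicle samples. The separation therefore holds for library totals only and was not tested with TMM factors.

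Several measures moved with the uninvolved livers, and their part in the members' changes was not tested. These libraries were deeper, at 34.8 to 44.6 M counts against 26.2 to 31.0 in vehicles, 26.4 to 33.5 in low-risk livers and 22.5 to 27.9 in tumors. Mitochondrial genes took 4.20 to 5.85% of counts in them against 3.14 to 3.83% in vehicles, and mitochondrial transfer RNAs 169 to 258 CPM against 65.1 to 87.9 in vehicles and 57.9 to 70.8 in tumors. Rn7sk reached 9040.3 to 17755 CPM against 5046 to 6218 in vehicles. The nuclear RNA Malat1 had 4704 to 5800.1 CPM in uninvolved libraries 1, 5 and 7 against 813 to 1527 CPM in vehicles, whereas libraries 3, 6 and 12 lay within the vehicle range at 1321, 1364 and 1133 CPM.

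Markers of other liver cell types differed as well. The 6 stellate cell markers summed to 592 to 840 CPM in uninvolved livers, 252 to 449 in vehicles and 440 to 776 in tumors, and the 5 ductal markers to 118 to 264, 34.9 to 50.7 and 146 to 870 CPM. The 5 proliferation markers had 14.2 to 89.8, 3.63 to 14.6 and 11.9 to 157 CPM, and the 6 Kupffer cell and macrophage markers 96.2 to 174, 163 to 237 and 119 to 220.1 CPM. The 5 endothelial markers had 246 to 320, 220 to 263 and 162 to 267 CPM and the 5 B and plasma cell markers 11.97 to 79.4, 9.26 to 83.7 and 13.5 to 47.4 CPM. Every listed marker was detected in each of these groups.

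**Figure D5:**
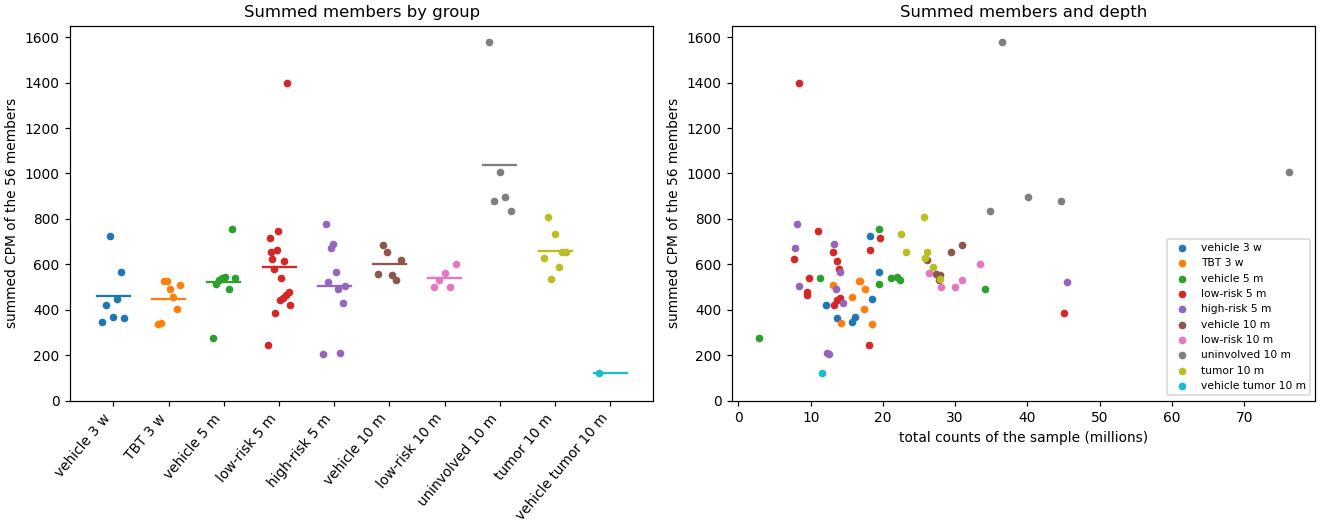
Summed CPM of the 56 members by group at all ages (left, 1 point per sample) and against the total counts of the sample in M (right). The 5 uninvolved samples lie at 834 to 1578 CPM, above the other 10-month samples, and at higher totals.

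The deepest libraries of the series are in 5-month groups: high-risk 9 with 45.4 and low-risk 7 with 45.1 M counts. Of the 10 members named as higher in uninvolved livers, high-risk 9 was above all 9 other high-risk libraries in 3 and above their median in 9. Among these 3 was Gm22614, which reached the threshold only with the uninvolved libraries. Low-risk 7 was above all 15 others in 1 of the 10 and above their median in 7. It was below all 15 others in 1, Gm24265, with 20.8 CPM against a lowest of 30.3 CPM. For the 3 members named as lower, both libraries were below the median of the others. In low-risk 7 the sum over all members was low too, at 386 CPM where the group median was 560 CPM. Its low values were thus not particular to these 3. High-risk 9 summed to 521 CPM, where its group median was 512 CPM. The part of depth was not tested.

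At 5 months, high-risk and low-risk TBT livers differed in 10 of 54 tested members, 9 lower and 1 higher in high-risk livers, in a fit with sequencing batch as a term; 38.9% of all genes were called, so the members' share was below the background. No member had levels that did not overlap, beside 2.65% of all genes. The median log2 fold change was -0.57, beside -0.01 over all genes. Gm22486 had a lowest, median and highest level of 1.41, 7.04 and 9.55 CPM in vehicles, 1.22, 6.58 and 17.5 CPM in low-risk and 0.715, 2.91 and 4.28 CPM in high-risk livers, so that the high-risk median was the lowest (log2 fold change -1.97, SE 0.35, edgeR adjusted p = 3.3e-05). It was called in batch 1 alone (-2.71) and in batch 2 alone (-1.74), and in all 10 alternatives.

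Gm22442 had 5.15, 37.0 and 62.3 CPM in low-risk and 3.34, 16.2 and 38.9 CPM in high-risk livers, in the same order (log2 fold change -1.35, SE 0.29, edgeR adjusted p = 0.000329). Within batch 2 it fell by 1.60 (edgeR adjusted p = 6.06e-06) and within batch 1 it was not called (-0.93, edgeR adjusted p = 0.472). Gm25291 (-1.35), Gm24336 (-1.33), Gm22068 (-1.22), Gm23639 (-1.20), Gm24233 (-1.04), Gm24265 (-0.67) and Snord104 (-0.63) were lower as well. The 1 higher member was the scaRNA Gm22009, with 10.1, 17.4 and 29.5 CPM in low-risk and 16.05, 41.7 and 60.2 CPM in high-risk livers (log2 fold change 0.68, SE 0.18, edgeR adjusted p = 0.00312); batch 1 gave 0.48 and batch 2 gave 0.73. Batch 1 alone left 1 member called and batch 2 alone 9, while 15 were called without the libraries of unusual depth or makeup.

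Rnu12 and Snora23, far higher in the uninvolved livers at 10 months, had log2 fold changes of 0.22 (edgeR adjusted p = 0.761) and -0.93 (edgeR adjusted p = 0.0677) in high-risk over low-risk livers at 5 months. Their levels were 0.163, 0.840 and 9.01 CPM and 0.0810, 3.50 and 5.39 CPM in high-risk livers. Against vehicles, high-risk livers had 6 of 54 members lower and none higher, beside 15.8% of all genes: Gm25492 (-2.02), Gm22486 (-1.97), Gm24336 (-1.08), Gm22442 (-1.07), Snord104 (-0.86) and Gm25939 (-0.84). This count fell to 1 without the filter on low counts, to 2 in a fit of these groups alone and to 0 in batch 1 alone, and was 7 without the libraries of unusual depth or makeup. None of the 6 was called in all 10 alternatives, and Gm22442 turned to 0.48 (SE 0.44, edgeR adjusted p = 0.9999) in the fit with replicate number as a block, where the numbers do not mark the same mice. Both contrasts share the high-risk livers. Low-risk livers against vehicles gave 0 of 54 members (0 with DESeq2, 0 at an unadjusted p under 0.05), and 0% of all genes with edgeR. DESeq2 called 52 genes, 6 higher and 46 lower, and edgeR without batch as a term 20.

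At 3 weeks, TBT against vehicle gave 0 of 47 tested members (0 with DESeq2, 4 at an unadjusted p under 0.05 with edgeR) and 0% of all genes with edgeR (2 genes with DESeq2), and 0 members without the library labelled TBT 4.

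With age, more members rose than fell in vehicle livers. From 3 weeks to 5 months 20 of 55 were higher and 3 lower, beside 24.2% of all genes called, and the median was 0.58 against 0.03 over all genes. Levels of 2 members did not overlap between these ages, beside 7.2% of all genes. Gm24233 (1.43), Gm23442 (1.42), Gm25788 (1.33), Gm25291 (1.19) and Snora78 (1.04) rose, and Gm24339 (-1.56), Gm25360 (-0.57) and Gm22009 (-0.51) fell. Gm22009 had 19.4 to 33.0 CPM with a median of 22.1 at 3 weeks and 11.6 to 20.96 CPM with a median of 16.1 at 5 months, all libraries counted, though only batch 1 vehicles entered the test. From 5 to 10 months 12 of 55 were higher and 1, Gm25939 (-0.56), was lower, beside 14.1% of all genes.

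Among the 12, Gm24336 had 2.83 to 16.3 CPM with a median of 7.99 at 5 months and 20.6 to 26.3 CPM with a median of 23.3 at 10 months (log2 fold change 1.52, SE 0.16, edgeR adjusted p = 3.67e-05), Snora78 rose by 1.17, Rnu1a1 by 1.04, Gm22009 by 0.69 and Gm22442 by 0.58. From 5 to 10 months 6 members did not overlap, beside 6.07% of all genes. The count called rested on single livers: it was 6 without 10-month vehicle 2, 7 without 10-month vehicle 1, 4 or 7, and 8 without 5-month vehicle 4. Without the libraries of unusual depth or makeup, 31 members were called for the first step and 16 for the second. Without a filter on low counts the counts for the 2 steps were 12 and 6.

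The tumor library of a vehicle mouse entered no comparison. It summed to 121 CPM over the 56 members, below every vehicle liver of its age, with 46 members below all vehicle livers and 18 at 0 counts. It held 11.5 M counts, 14.1% of them mitochondrial.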

How the data were processed

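Liver RNA was extracted with RNeasy and DNase and made into TruSeq Stranded Total RNA libraries, per the labels' protocols. The authors deposited 1 table of whole-number counts per gene; per the submitters' processing notes, reads were processed with Trim Galore, HISAT2 and featureCounts on mm10, and per the name of the deposited table the counts had been adjusted for batch with ComBat-seq, which rewrites counts and may move low values. Tool versions, the strand setting and the treatment of reads that fit several places are not given in the sources used here. From these counts, edgeR 4.0.16 (R 4.3.3) quasi-likelihood tests were fitted over all genes that passed filterByExpr, with TMM factors and Benjamini-Hochberg adjustment; a gene was called at an adjusted p under 0.05. Tumors were fitted against 1 other group at a time, the 10-month livers in 1 fit of 3 groups, the 5-month livers in 1 fit with batch as a term, and ages on batch 1 vehicles. Sums of 2 libraries stood for the closest uninvolved pair (mean chi-square per gene 3.48, beside 39.3 for the next closest) and for 3-week vehicle mouse 3. The vehicle tumor library entered no comparison.

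Members, lists and tests were chosen with earlier results of these data known. Named were up to 10 called members each way for the 2 main comparisons (5 or 3 for others) with non-overlapping levels and a mean of at least 5 CPM, the 10 most abundant members, and every scaRNA and snRNA. Positions and sequences came from GENCODE M21 on GRCm38, which matched 55536 of 55536 gene IDs. Alternatives were other scalings, no filter, DESeq2 1.42.0, replicate blocks, single batches and samples left out. Tested on simulated counts, the fit of uninvolved against vehicle samples over 16338 genes called 72 of 100 genes changed 2-fold and 91 of 100 changed 4-fold, with 9 false calls. Only these genes differed in the simulation, as many up as down, whereas the real comparison called 57.7% of all genes. The simulation therefore does not give the error under so broad a change. Tumors and uninvolved livers share mouse numbers in their titles; over 16117 genes, deviations from the group means correlated by 0.648 for mouse 7, 0.067 for 12, 0.020 for 1, -0.013 for 5, -0.043 for 3 and -0.274 for 6.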

Additional observations from a re-analysis of the deposited data

Results flagged for a closer look

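One sample stood apart from the rest of its group in 36 of 184 groups tested over 23 quantities, where chance gives about 1 in 20. Uninvolved 12 accounted for 9 of them, always as the highest sample. Its sum over the 56 members was 1578 CPM against 834 to 1007 in the other 4, Snora23 40.5 CPM against 18.3 to 24.5, Gm25776 15.9 CPM against 8.19 to 9.74 and Gm24119 15.8 CPM against 7.40 to 9.25. Snord17 had 129.8 CPM against 75.3 to 83.8, Gm24265 140.0 CPM against 62.9 to 77.9, its pair with Gm24407 207 CPM against 95.1 to 112, Gm22442 43.1 CPM against 28.4 to 30.8 and Rnu1a1 3.97 CPM against 1.93 to 2.44. Thus members that were higher and members that were lower in uninvolved livers both had their highest value in this sample.

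TBT 8 at 3 weeks was the highest of its group in 5 members: Gm25291 at 22.7 CPM against 7.98 to 13.4 in the others, Gm26397 at 11.6 CPM against 4.01 to 5.82, Gm22068 at 12.5 CPM against 2.33 to 6.96, Gm24727 at 3.68 CPM against 0.900 to 1.66 and Snora23 at 2.07 CPM against 0.828 to 1.41. That library was unusual in makeup, with 24355 CPM in genes classed as miRNA, where the group median was 1913 CPM. Protein-coding genes took 82.6% of its counts, where the group median was 96.8%. It stayed in the 3-week comparison. These 5 members were all among those raised in uninvolved livers at 10 months. TBT 3 at 3 weeks had Snora78 at 5.22 CPM against 1.21 to 2.44 and Rnu1a1 at 10.8 CPM against 1.15 to 3.57, both lowered in uninvolved livers. Every member flagged by this screen had been named for a 10-month difference. A match with the 10-month changes was thus built into the choice, and no conclusion is drawn from it.

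Gm22614 was at 0 in all other samples of 5 groups and present in 1: 9.75 CPM in high-risk 9 at 5 months, the deepest library, 1.24 CPM in tumor 12, 1.08 CPM in TBT 1 at 3 weeks, 0.401 CPM in vehicle 1 at 10 months and 0.0550 CPM in vehicle 3 at 3 weeks. Among other high-risk livers at 5 months, Rnu12 reached 9.01 CPM against 0.163 to 4.62 in number 12, Gm24119 7.94 CPM against 0 to 3.96 in number 13, and in number 4 the summed U1 genes 136 CPM against 2.20 to 59.3 and Rnu1a1 12.6 CPM against 0 to 4.20. The Gm24119 value lay within the range of the uninvolved livers at 10 months, and the Rnu12 value just under their lowest, 9.86 CPM. High values were not confined to high-risk livers. Low-risk livers at 5 months reached 6.20 CPM of Rnu12, 3.38 CPM of Gm24119 and 18.3 CPM of Snora23, whose lowest uninvolved value was also 18.3. Low-risk 24 summed to 1398 CPM over the 56 members, within the 834 to 1578 CPM of uninvolved livers.

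Vehicle 6 at 5 months was high in Gm24265 with 96.9 CPM against 26.8 to 50.5, in the pair with 149 CPM against 32.1 to 81.0 and in Rnu1a1 with 7.86 CPM against 0 to 3.27. Vehicle 9 of that age, the shallowest library, was low in Gm22442 with 8.83 CPM against 26.2 to 37.4 and in Gm24727 with 0.353 CPM against 1.23 to 1.54. At 3 weeks vehicle 7 was low in Snord17 with 16.4 CPM against 28.3 to 34.8 and vehicle 3 high in the summed U2 genes with 338 CPM against 92.0 to 197. Low-risk livers at 10 months held 4 such values: the U2 sum at 158 CPM against 94.9 to 111 in mouse 9, Gm22068 at 15.3 CPM against 4.62 to 6.45 in mouse 10, Gm22009 at 27.4 CPM against 20.3 to 21.8 in mouse 4 and a low Rnu1a1 at 3.99 CPM against 5.93 to 6.27 in mouse 8.

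The tumor library of a vehicle mouse, used in no comparison, was above all 6 vehicle livers in 2 members, Snord104 at 4.43 CPM against 2.90 to 3.94 and the scaRNA Gm23119 at 2.43 CPM against 1.55 to 2.42. That difference rests on 1 library and was not tested.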

How the results depend on the processing

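For tumors over uninvolved livers the members called stayed at 30 to 35 when single samples were left out, for uninvolved over vehicle livers at 39 to 44, for uninvolved over low-risk livers at 40 to 44, and for low-risk over vehicle livers at 0. In the replicate block by mouse number the first had 35 (33 shared with the unblocked fit, 2 lost and 2 gained) and the second 38. Uninvolved libraries 3 and 6 were not summed in these block fits. Of the members called higher and lower, 9 of 12 and 17 of 23 were called in all 21 alternatives for tumors over uninvolved livers, and 18 of 22 and 9 of 19 in all 20 for uninvolved over vehicle livers. Uninvolved over vehicle livers gave 29 with the vehicle tumor library counted as a vehicle. Tumors over vehicles (8) gave 7 to 13 with a sample left out, 5 in the replicate block, 2 with the vehicle tumor library as a vehicle, and 16 with library totals alone, a setting chosen after seeing the data. High-risk over low-risk livers at 5 months (10) gave 1 in batch 1 alone. High-risk over vehicle livers at 5 months (6) gave 1 without the filter, 0 in the replicate block, 2 in a fit of both groups alone and 0 in batch 1 alone. Vehicles at 5 months over 3 weeks (23) gave 12 without the filter. Vehicles at 10 over 5 months (13) gave 6 without the filter, 7 in the replicate block, and 6 to 17 with a liver left out, among them 7 without 10-month vehicle 1, 4 or 7 and 8 without 5-month vehicle 4. No paired analysis was possible because uninvolved and low-risk livers at 10 months, and high-risk and low-risk livers at 5 months, share no replicate numbers. Replicate numbers shared between vehicle and TBT mice or between ages are numbers only. The cause of these moves was not tested. Low counts limit Gm26316, Gm24305, Gm25848 and Gm24616, which had under 3 CPM in most samples.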
